A study of Mus musculus with 3 samples.

Results

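Ccn1, Ccn2, Ccn3, Ccn4, Ccn5, Yap1, Wwtr1, Tead1, Ankrd1 and Amotl2 were followed through the cells of injured mouse muscle. The 10 genes were chosen by name from the 32285 features of the gene list, and each name matched 1 feature. Single-cell RNA sequencing had been run on tibialis anterior muscles of C57/BL6J mice 4 days after injury with BaCl2, a salt that kills muscle fibres. The 3 groups were young mice of 3 to 4 months given PBS (young PBS), old mice of 24 to 26 months given PBS (old PBS), and old mice given rMETRNL, recombinant meteorin-like protein, into the muscle (old rMETRNL). The injury was common to all groups, and no uninjured muscle was in the comparison. Each group was 1 library made from 3 pooled samples, so there was no replicate of any group and no test between groups. All intervals below are 95% intervals that cover counting error only, and a difference between mice, pools or library preparations cannot be told apart from age or treatment.

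CCN proteins are secreted matricellular proteins that bind integrins, proteoglycans and growth factors in the matrix around a cell. YAP (Yap1) and TAZ (Wwtr1) are transcriptional coactivators that the Hippo kinases hold out of the nucleus, and that bind DNA through TEAD factors once they enter it. Ccn1, Ccn2, Ankrd1 and Amotl2 are among the genes most often used as readouts of that activity, and CCN2 is best known in muscle for its part in fibrosis. In GRCm38 the CCN genes lie apart, Ccn1 at chr3:145646976-145649981 (minus strand), Ccn2 at chr10:24595442-24598683 (plus), Ccn3 at chr15:54745702-54754039 (plus), Ccn4 at chr15:66891320-66923201 (plus) and Ccn5 at chr2:163820861-163833146 (plus). Yap1 lies at chr9:7931999-8004596 (minus), Wwtr1 at chr3:57455649-57575910 (minus) and Tead1 at chr7:112679318-112906807 (plus), and the target genes Ankrd1 and Amotl2 at chr19:36111961-36120099 (minus) and chr9:102716672-102733418 (plus). The RNA levels below measure neither the place nor the activity of YAP or TAZ protein.

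TEAD factors recognise the letters CATTCC, which read GGAATG on the other strand. RefSeq windows of GRCm38.p6 were at hand for 5 of the 10 genes, and the 250 bases before each start were searched on both strands. All 5 genes held at least 1 match, against 12.6% of 32851 windows of that length, and Ankrd1 held 2, as did 0.992% of windows. No window was at hand for Ccn2, Ccn3, Ccn4, Ccn5 and Tead1, so the count does not speak for the 10 genes. Wwtr1 had 2 overlapping windows with the same match, so a count of genes stands beside a share of windows. The Ccn1 window is shown whole because Ccn1 had the most UMIs of the 10 genes, and the others are shown as 30 bases around each match, with the match in capitals.
Ccn1, whole window: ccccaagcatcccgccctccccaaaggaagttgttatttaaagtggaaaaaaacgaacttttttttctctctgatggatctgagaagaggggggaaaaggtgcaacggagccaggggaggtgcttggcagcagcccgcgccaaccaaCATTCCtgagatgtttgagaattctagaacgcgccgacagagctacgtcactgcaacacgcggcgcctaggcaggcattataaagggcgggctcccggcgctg
Amotl2: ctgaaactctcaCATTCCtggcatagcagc
Ankrd1, far site: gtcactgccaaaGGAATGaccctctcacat
Ankrd1, near site: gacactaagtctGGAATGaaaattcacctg
Yap1: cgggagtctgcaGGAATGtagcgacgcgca
Wwtr1: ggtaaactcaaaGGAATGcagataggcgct
The Ccn1 window was chr3:145649986-145650235 on the minus strand, with the match 103 bases before the start and no annotated exon inside it. The Amotl2 site was chr9:102717727-102717756 on the plus strand, 65 bases before the start, inside an annotated Amotl2 exon. Both Ankrd1 sites, chr19:36120037-36120066 and chr19:36119950-36119979 on the minus strand, lay 210 and 123 bases before the start and inside an annotated Ankrd1 exon. The Yap1 site, chr9:8004720-8004749, and the Wwtr1 site, chr3:57576029-57576058, were on the minus strand and overlapped no annotated exon. The letters TGACTCA or TGAGTCA, an AP-1 element held by 4.46% of windows, and the CArG box of serum response factor, held by 1.47%, had no match in any window of the 5 genes. A match is a description of the letters and not a binding site shown in these cells.

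The 3 libraries held 12168 to 14012 barcodes and 179295668 to 228966697 UMIs, and 31592 cells were kept and named from marker genes. The names cover FAP-like cells (fibro/adipogenic progenitors, the Pdgfra-positive stromal cells of muscle), tenocyte-like, pericyte/smooth muscle-like, endothelial-like and MuSC/myoblast-like cells (muscle stem cells and their myogenic progeny), and macrophage/monocyte-like, dendritic-like and T/NK-like cells. All of the 8 to 11 markers of each of these 8 classes were detected in every library. The libraries differed in ways that touch the results. Endothelial-like cells of young PBS had a median of 11402 UMIs, those of old PBS 4075 and those of old rMETRNL 7712. Muscle fibre-like cells numbered 34, 433 and 128 in the same order, and the summed level of 9 fibre markers inside endothelial-like cells was 10.1, 107 and 25.1 CPM (UMIs per 1000000 UMIs of the class). Pairs of libraries shared 58 to 80 barcodes. The part of these differences in the results below was not tested.

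Levels of the 10 genes were low in the immune classes. In the macrophage/monocyte-like, dendritic-like and T/NK-like cells of the 3 libraries, 89 of the 90 levels lay between 0 and 5.88 CPM. The other was Wwtr1 at 17.3 CPM in the T/NK-like cells of old PBS, from 27 UMIs. After each cell was thinned to 2000 UMIs, a Ccn1 UMI was found in 35.7% of young PBS FAP-like cells (interval 33.4 to 38.0). The share was 28.9% for old PBS (26.5 to 31.4) and 35.6% for old rMETRNL (33.3 to 37.9). The share of macrophage/monocyte-like cells, taken here as background, was 0.479%, 0.619% and 0.712%. Free RNA and a low level of the cells' own cannot be told apart in that class. Without thinning the shares were 77.4%, 67.7% and 77.3% of FAP-like cells and 3.57%, 3.68% and 4.52% of macrophage/monocyte-like cells, whose median UMIs were 26145, 21835 and 24709 in the first class and 14323, 15215 and 14839 in the second. No FAP-like cell of young PBS fell below 2000 UMIs, and 16 and 14 were left out in old PBS and old rMETRNL.

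**Figure D1:**
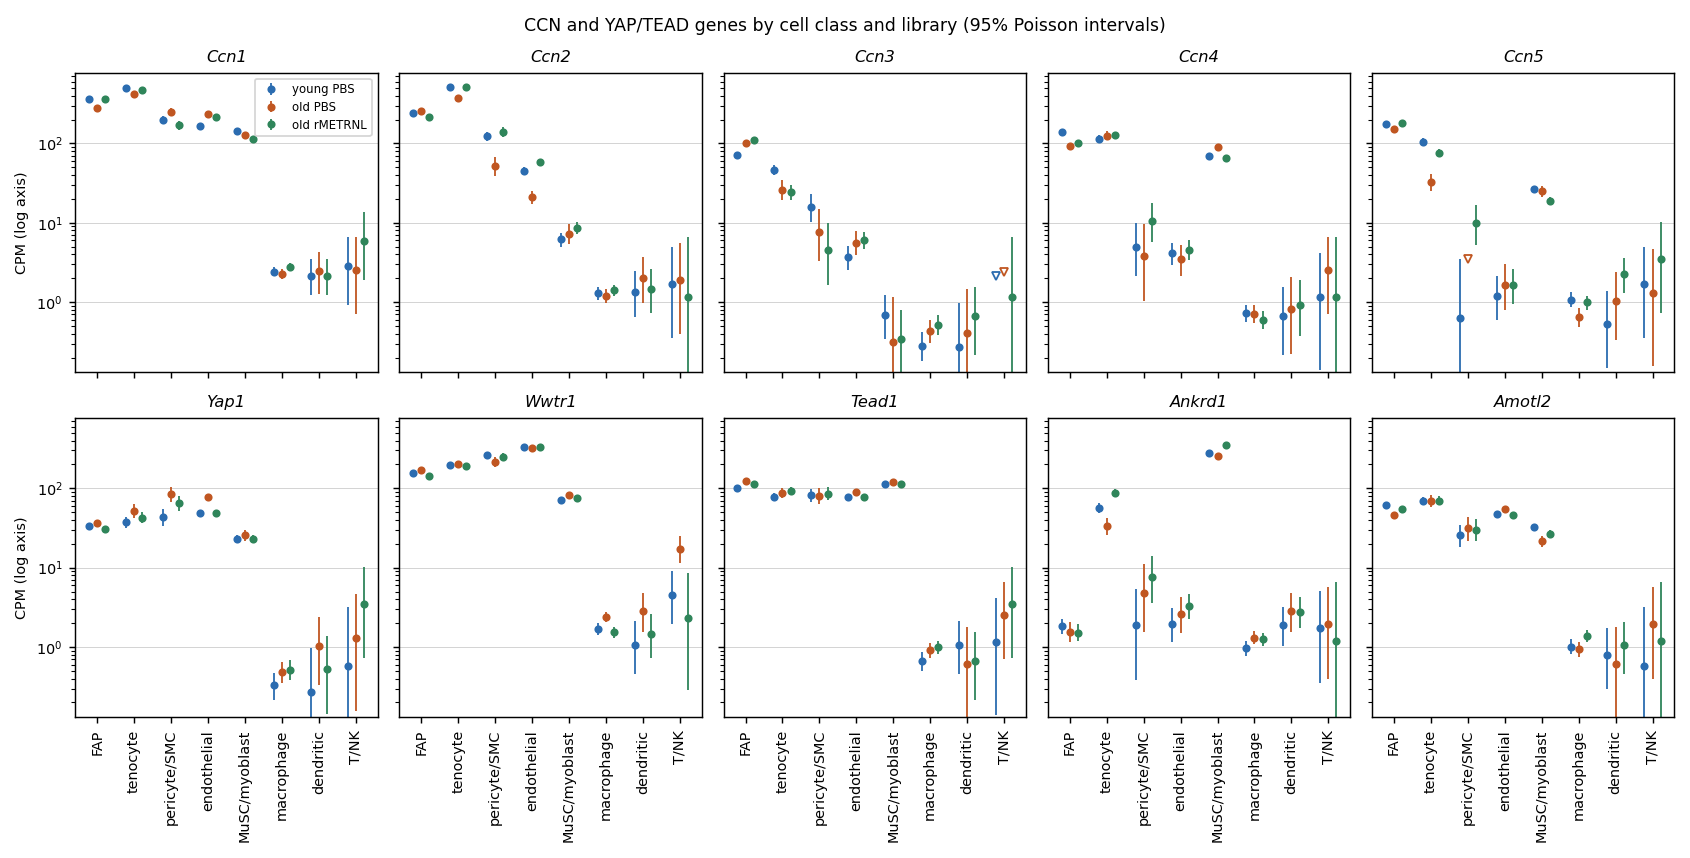
Level of each of the 10 genes (CPM, log axis) in 8 cell classes, with 1 point per library and 95% Poisson intervals, cut at the lower edge of the axis. Open triangles mark classes without a UMI, drawn at the upper end of the interval. For Ccn1, Wwtr1 and Tead1 the immune classes at the right lie below all 5 stromal and myogenic classes, which is not so for Ccn3, Ccn5 and Ankrd1.

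The order of the 8 classes differed from gene to gene. Ccn1, an integrin ligand and immediate target of growth factor signals, was highest in tenocyte-like cells, at 494, 420.4 and 469 CPM (young PBS first, then old PBS, then old rMETRNL, the order used throughout). FAP-like cells followed with 362, 279.7 and 365 CPM, and the 2 classes did not overlap. Endothelial-like cells, at 168 to 238 CPM, and pericyte/smooth muscle-like cells, at 169 to 248 CPM, could not be put in order. MuSC/myoblast-like cells were below both, at 143, 128 and 114 CPM.

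Ccn2, once called connective tissue growth factor, had the same 2 classes at its head. Tenocyte-like cells held 509, 371 and 512 CPM and FAP-like cells 242, 259 and 215 CPM. Pericyte/smooth muscle-like cells (51.2 to 140.4 CPM) and endothelial-like cells (21.0 to 57.6 CPM) overlapped over the 3 libraries. MuSC/myoblast-like cells, which held over 100 CPM of Ccn1 in every library, had 6.17, 7.32 and 8.61 CPM of Ccn2. FAP-like cells supplied 77.9%, 84.6% and 73.1% of all Ccn2 UMIs, while holding 24.8%, 19.5% and 22.2% of all UMIs. 

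Among the 8 classes compared, Ccn3 and Ccn5 were highest in FAP-like cells. Ccn3 measured 71.8, 102 and 111 CPM there and 46.5, 25.9 and 24.3 CPM in tenocyte-like cells, and it was under 1 CPM in MuSC/myoblast-like cells of every library. FAP-like cells held 86.1%, 90.7% and 92.4% of its UMIs. Ccn5, the CCN protein without the C-terminal cystine knot, measured 176, 153 and 182 CPM in FAP-like cells, 105, 32.6 and 76.3 CPM in tenocyte-like cells and 26.4, 24.98 and 18.9 CPM in MuSC/myoblast-like cells. In endothelial-like cells it stayed between 1.19 and 1.65 CPM.

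Ccn4, a target of WNT signalling, came closer to an even level in the stromal and myogenic classes at its head. Its levels were 115, 125 and 129 CPM in tenocyte-like cells, 140.0, 92.5 and 101 CPM in FAP-like cells, and 68.9, 90.9 and 66.3 CPM in MuSC/myoblast-like cells. Tenocyte-like and FAP-like cells overlapped. Pericyte/smooth muscle-like and endothelial-like cells held 3.47 to 10.6 CPM. Ccn6, the sixth gene of the family and not among the 10, was under 2 CPM in all 5 stromal and myogenic classes.

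A ratio between 2 libraries was counted as a difference where it reached 1.5-fold in either direction, its interval left out 1, and the 2 libraries held at least 50 UMIs of the gene in that class. For age, old PBS was divided by young PBS. For treatment, old rMETRNL was divided by old PBS. Both use the old PBS library, so a value that was low there gives a ratio below 1 in the first and above 1 in the second.

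In FAP-like cells 10 of 10 genes had enough UMIs, and 1 of them passed in the age contrast, where 12.2% of 13473 genes did. That gene was Ccn4, lower in old PBS with a ratio of 0.661 (interval 0.632 to 0.691). Next to it and short of the limit stood Ccn3, at 1.41 (1.35 to 1.49), and Amotl2, at 0.747 (0.700 to 0.797). Ccn1 had a ratio of 0.773 (0.753 to 0.794), Ccn5 of 0.869 and Ccn2 of 1.07. Yap1 and Wwtr1 both stood at 1.10, and Ankrd1, with 132 UMIs in the 2 libraries, at 0.851 (0.583 to 1.23). In the treatment contrast 0 of 10 genes passed, against 7.77% of 13405 genes. The ratios ran from 0.828 for Ccn2 (0.803 to 0.853) to 1.30 for Ccn1 (1.27 to 1.34), with Ccn5 and Amotl2 both at 1.19, Ccn3 at 1.10 and Ccn4 at 1.09. Summed over the class, Ccn1 in old rMETRNL was thus at its young PBS level, 365 against 362 CPM. The intervals were 359 to 370.3 and 356 to 367 CPM. Single sub-clusters, given below, did not all share that Ccn1 pattern. Ccn4 was not at its young PBS level, with 101 against 140.0 CPM.

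**Figure D2:**
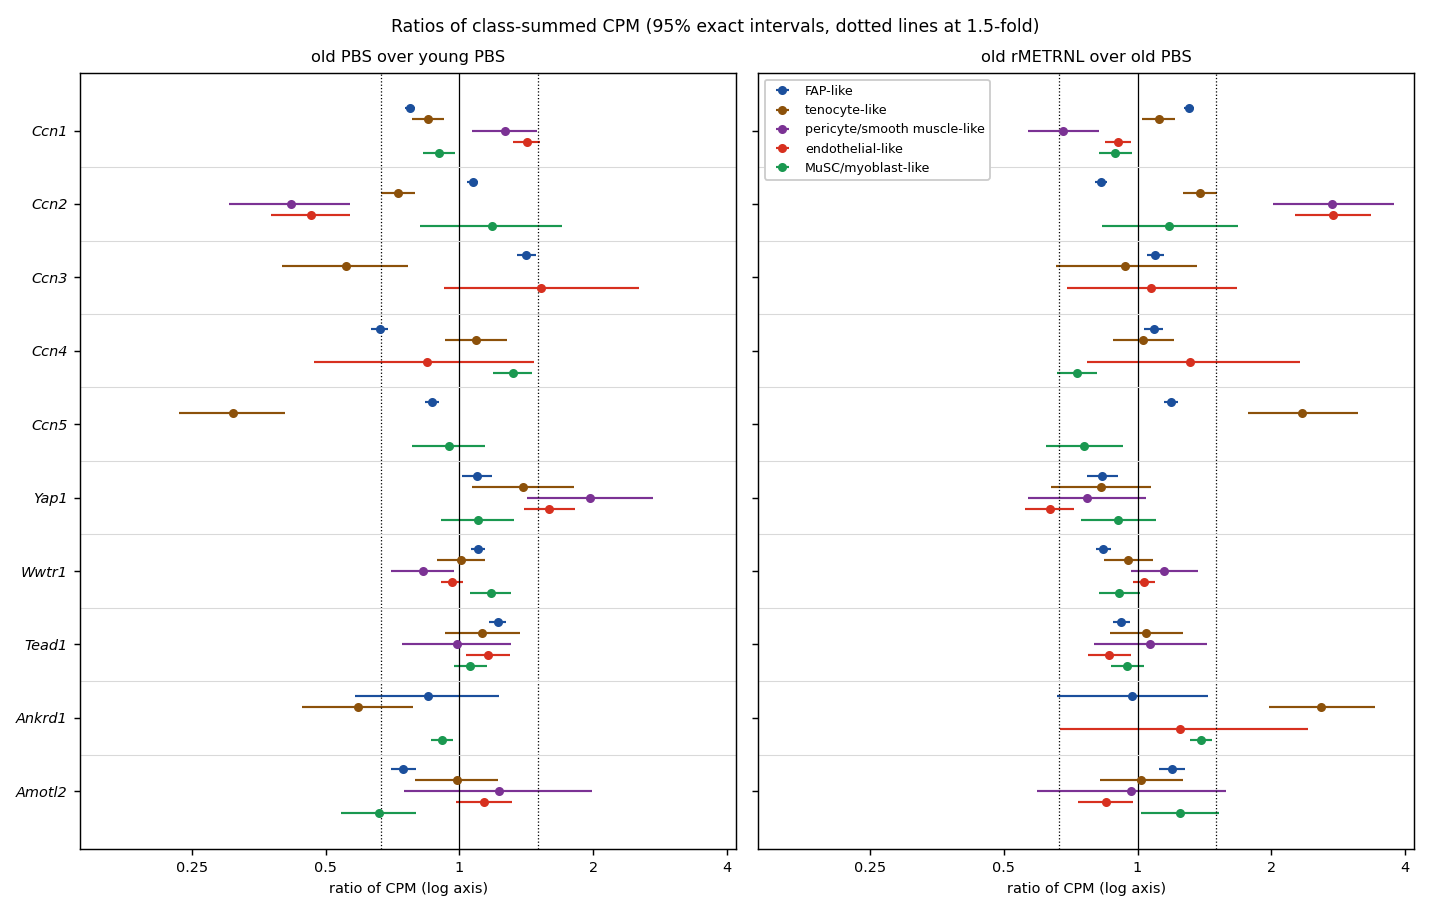
Ratio of class-summed CPM (log axis) of the 10 genes in 5 classes, at the left for old PBS over young PBS and at the right for old rMETRNL over old PBS, with 95% exact intervals of counting error. The dotted lines stand at 1.5-fold, and genes under 50 UMIs are not drawn. Ccn2 in endothelial-like and pericyte/smooth muscle-like cells lies left of the lower line in the first panel and right of the upper line in the second.

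FAP-like cells fell into 11 sub-clusters, and the CCN genes marked different ones. Sub-cluster 4, led by Efhd1 and Pi16, a gene of adventitial stromal cells, held Ccn3 at 486, 650.4 and 654 CPM. The sub-cluster with the lowest Ccn3, number 7 and led by Tenm4 and Hey1, a Notch target, held 3.46, 6.54 and 4.17 CPM. Its 10 leading genes, ranked against the other FAP-like cells, included Gucy1a1, Mcam and Notch3, which mural cells express. They held none of the FAP markers, but of the kept sub-clusters only number 4 held one, Pi16. Sub-cluster 2, led by Ptprn, came next with 16.7, 15.7 and 17.97 CPM. Ccn4 ran the other way in these sub-clusters, at 7.08, 2.35 and 6.65 CPM in sub-cluster 4, 183, 156 and 174 CPM in sub-cluster 7 and 170.4, 119 and 123 CPM in sub-cluster 2. Sub-cluster 8, led by Clu, held Ccn4 at 13.9, 8.77 and 9.48 CPM and Ccn3 at 77.8, 85.7 and 114 CPM. The order was not inverse throughout. Sub-cluster 3 held Ccn3 at 76.2, 69.5 and 26.7 CPM and Ccn4 at 165, 97.1 and 121 CPM. In cells thinned to 5000 UMIs, Ccn4 was found in 25.2%, 13.96% and 13.4% of Ccn3-positive FAP-like cells and in 45.1%, 29.9% and 33.4% of Ccn3-negative ones. The intervals of these paired shares did not overlap in any library. Since the sub-clusters were made from the same cells and genes, these levels describe them and test nothing.

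Sub-cluster 4 made up 7.33% of FAP-like cells with young PBS. The share was 11.1% with old PBS and 12.8% with old rMETRNL. With the sub-cluster shares held equal across libraries, the Ccn3 age ratio was 1.27 in place of 1.41, while the Ccn3 treatment ratio turned from 1.10 to 0.965 and the Ccn5 age ratio from 0.869 to 1.02. The Ccn4 ratio was 0.712 in place of 0.661, inside the limit, and it was inside the limit in 6 of 13 alternatives. Ccn4 was lower in old PBS in 8 of the 8 sub-clusters with enough UMIs, with 7 intervals below 1 and ratios of 0.341 to 0.927. In the other 3 sub-clusters, numbers 4, 8 and 10, the ratios were 0.332, 0.633 and 0.865, and the intervals of the last 2 included 1.

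Ccn1 and Ccn2 did not move in 1 direction across the sub-clusters. Sub-cluster 5, led by the heat-shock genes Hspb1 and Dnaja4, held the highest Ccn1 in each library, at 1060, 519 and 775 CPM, and its summed level of 12 immediate early genes was also the highest, at 16860, 17662 and 14182 CPM. Sub-cluster 5 made up 8.83%, 5.15% and 11.3% of FAP-like cells. Tissue dissociation can raise both gene groups, and that part was not tested. In sub-cluster 1, led by Inka1, Ccn1 was 495, 259.8 and 458 CPM, while in sub-cluster 3, led by Chl1 and Gdnf, it was 206, 292 and 309 CPM. The Ccn1 age ratio was above 1 in 5 sub-clusters and below 1 in 6. When sub-clusters 5, 7 and 12 were left out, the class ratio of Ccn1 came to 0.912 with age and 1.17 with treatment. The Ccn2 age ratio was above 1 in 6 and below 1 in 5, from 0.445 to 1.81. Sub-cluster 12, led by Sfrp5, Itgb4 and Cldn1, had Ccn2 at 764, 429 and 440.2 CPM from 41, 50 and 25 cells. Its 10 leading genes are seldom used for FAPs and held no FAP marker. Leading genes are ranked against the other FAP-like cells, so markers that all FAPs share seldom lead. Of the kept sub-clusters only number 4 had one, Pi16, among its leading genes. The class ratios above leave out sub-cluster 12, sub-cluster 7 and the heat-shock sub-cluster 5, but whether these are FAPs was not tested. In the treatment contrast Ccn1 was above 1 in 9 of 11 sub-clusters, with 7 intervals.

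**Figure D3:**
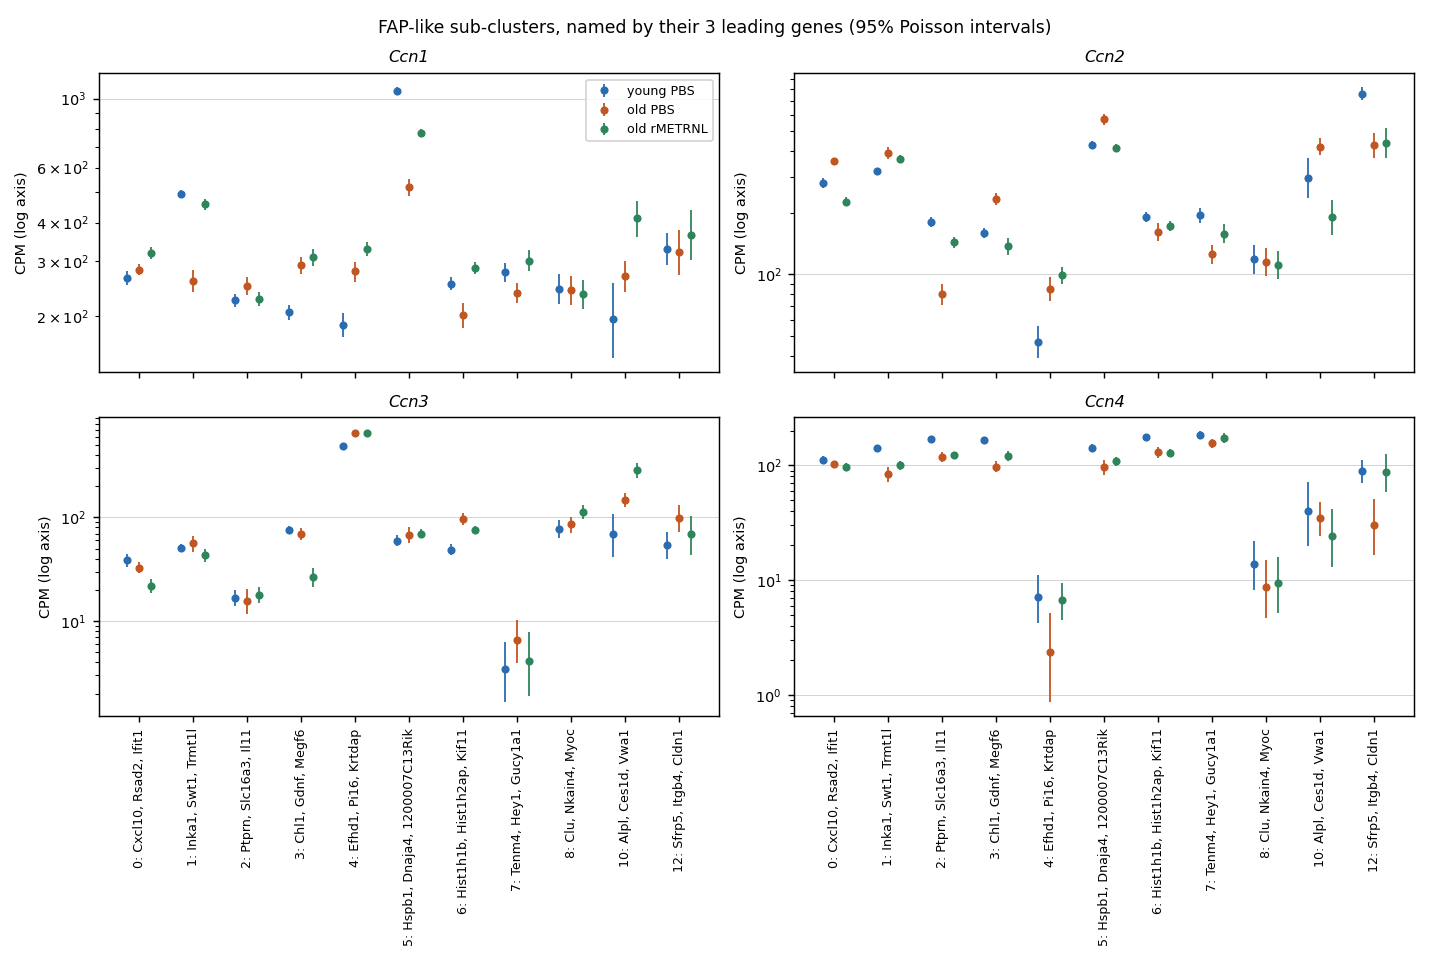
Ccn1, Ccn2, Ccn3 and Ccn4 (CPM, log axis) in 11 FAP-like sub-clusters, 1 point per library with 95% Poisson intervals. Ccn3 peaks and Ccn4 is lowest in sub-cluster 4, and Ccn1 peaks in sub-cluster 5 in all 3 libraries.

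In endothelial-like cells 8 genes had enough UMIs for the age contrast, and 2 passed, against 15.3% of 10535 genes. Ccn2 was lower in old PBS, at 21.0 CPM against 45.2 in young PBS, a ratio of 0.464 (0.377 to 0.567). Yap1 was higher, at 77.4 against 48.6 CPM, a ratio of 1.595 (1.40 to 1.82). For the treatment contrast 9 genes had enough UMIs, and the same 2 passed, against 10.7% of 10719 genes. Ccn2 was 57.6 CPM in old rMETRNL, 2.75-fold the old PBS level (2.26 to 3.35), and Yap1 was 49.1 CPM, with a ratio of 0.634 (0.558 to 0.720). Ccn1 was 168, 238 and 215 CPM, and its age ratio of 1.42 (1.32 to 1.52) stayed short of the limit, though it ran from 1.002 to 2.05 over 13 alternatives and reached 1.5-fold in 2 of them. The age ratios of Ccn2 and Yap1 each reached 1.5-fold in 10 of 13 alternatives, and the treatment ratios in 11 and 10. Under the marker gate in each cell, which also took in cells of other classes, the Ccn2 age ratio turned to 1.11 and the treatment ratio was 1.25. Taking the mean of per-cell CPM put the Ccn2 ratios at 0.862 and 1.46 and the Yap1 ratios at 1.37 and 0.826, all inside the limit, and the Ccn1 age ratio at 2.05. Sub-cluster 10, with 18, 15 and 20 cells, was led by leukocyte genes such as Ptprc, Cd74 and Cx3cr1 and stayed in the class. Without it the Ccn2 ratios were 0.486 and 2.76 and the Yap1 ratios 1.56 and 0.652.

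The endothelial-like differences depended on the UMIs per cell. In cells with 10000 UMIs or more, Ccn2 was 46.6 CPM for young PBS (41.9 to 51.6), 17.5 for old PBS (13.5 to 22.3) and 62.3 for old rMETRNL (57.1 to 67.9). In cells under 5000 UMIs it was 11.2, 34.5 and 30.2 CPM, from 4, 43 and 26 UMIs, so there the old PBS level was not the lowest. Ccn1 was lowest in old PBS in the cells of 10000 UMIs or more, at 162, 139 and 193 CPM, and highest there in the cells under 5000 UMIs, at 328, 531 and 482 CPM. The age ratio of Ccn1 in cells with at least 5000 UMIs was 1.002. Yap1 was 43.3, 66.4 and 40.0 CPM in the cells with most UMIs, and 81.4, 90.7 and 83.6 CPM with overlapping intervals in the cells with fewest. The summed level of the immediate early list was 7320, 10314 and 7829 CPM in the class, and that of 11 macrophage/monocyte markers was 567, 1035 and 865 CPM. The 10 FAP markers summed to 166, 331 and 168 CPM there, and 6 erythroid markers to 24.01, 175 and 39.7 CPM, both highest in old PBS. Their part in the results was not tested.

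**Figure D4:**
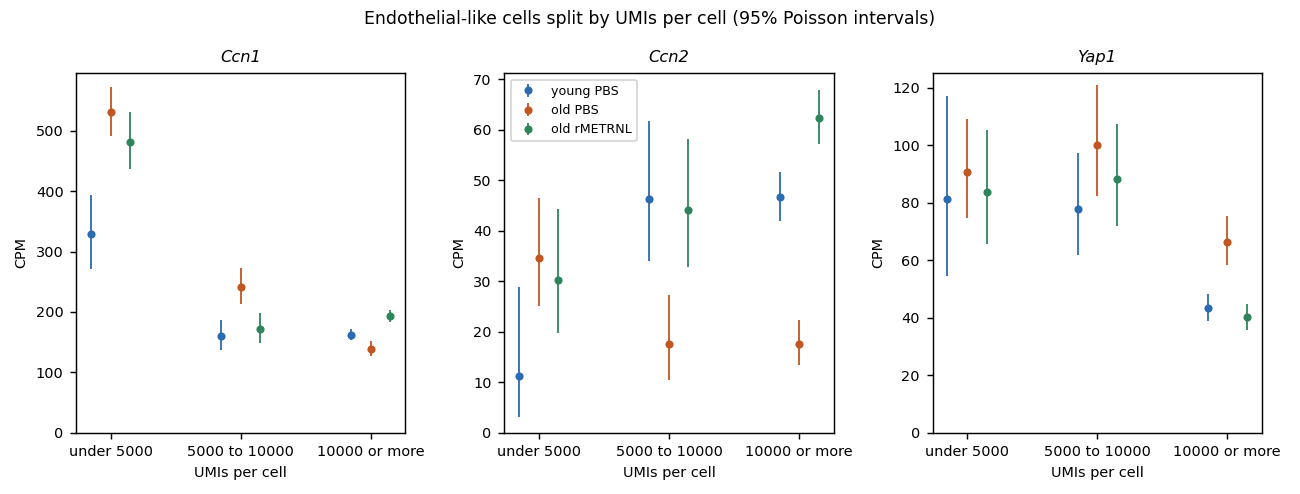
Ccn1, Ccn2 and Yap1 (CPM) in endothelial-like cells split by UMIs per cell, 1 point per library with 95% Poisson intervals. The old PBS point for Ccn2 is lowest in the 2 deeper bins and not in the shallowest, where the point for Ccn1 is highest.

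Ccn2 differed between endothelial-like sub-clusters, and their order was not the same in each library. Sub-cluster 4, led by Tnfrsf9, Chst2 and Gpr182, held 95.4, 27.1 and 142 CPM from 69, 20 and 73 cells. The cycling sub-cluster 5, led by Prc1, held 45.9, 13.7 and 78.1 CPM from 71, 27 and 61 cells, and sub-cluster 6, led by Apln, a gene of sprouting endothelial cells, held 67.3, 22.1 and 85.7 CPM from 45, 29 and 80 cells. Sub-clusters 0, 1 and 2 did not have their lowest Ccn2 in old PBS. Sub-cluster 0, led by Tnfsf9, held 0, 30.8 and 13.9 CPM from 0, 25 and 9 UMIs, sub-cluster 1 held 5.49, 9.002 and 9.64 CPM, and sub-cluster 2 held 22.6, 39.8 and 32.0 CPM. Sub-cluster 7 was lowest in old rMETRNL, at 64.9, 14.3 and 4.57 CPM, from 54, 3 and 2 UMIs. The class sat in different sub-clusters in each library. Sub-cluster 0 made up 9.05%, 27.8% and 20.4% of it and sub-cluster 2 made up 6.53%, 24.7% and 14.6%. Sub-clusters 0 and 2 had medians of 2970 and 1925 UMIs per cell, against 13284, 26690 and 19464 in sub-clusters 4, 5 and 6. The split by UMIs per cell above is thus in part a split by sub-cluster. With equal sub-cluster shares the age ratio was 0.828 for Ccn2 and 1.12 for Yap1, and the treatment ratio 1.595 and 0.835, so that Ccn2 with treatment alone reached 1.5-fold. The share of endothelial-like cells with a Ccn2 UMI after thinning to 2000 UMIs was 3.87%, 4.19% and 6.602%, which does not follow the order of the CPM levels and is not read as an order.

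Pericyte/smooth muscle-like cells, named for the mural cells around vessels, showed the same pair of genes past the limit in the age contrast. Of 6 genes with enough UMIs 2 passed, against 21.1% of 6396 genes. Ccn2 was 123, 51.2 and 140.4 CPM over the 3 libraries, a ratio of 0.417 (0.303 to 0.566) with age and 2.74 (2.02 to 3.79) with treatment. Yap1 was 43.0, 84.4 and 64.9 CPM, a ratio of 1.96 (1.42 to 2.73) with age, and of 0.770 (0.565 to 1.05) with treatment. In the treatment contrast Ccn2 was the 1 gene to pass, against 8.6% of 5997 genes. The class had 108, 137 and 119 cells and 54 Ccn2 UMIs in old PBS, and its immediate early level was 8882, 14744 and 12998 CPM. Its 10 endothelial markers summed to 3851, 3058 and 3431 CPM, against 6978, 7488 and 6935 CPM in endothelial-like cells. The class thus shares endothelial RNA, so the shared pair of genes cannot be read as independent of the endothelial-like result. The 9 fibre markers summed to 12.5, 246 and 56.6 CPM there, and the macrophage/monocyte markers to 717, 678 and 1118 CPM. The 10 FAP markers summed to 1799, 1280 and 1445 CPM and the 6 erythroid markers to 16.2, 48.4 and 34.7 CPM. Their part was not tested. Taking the mean of per-cell CPM moved the Ccn2 ratios to 0.712 and 1.47, inside the limit.

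Tenocyte-like cells, marked by tendon genes, had enough UMIs of all 10 genes. In the age contrast 3 of 10 passed, all lower, against 9.46% of 8044 genes in either direction and 4.03% in that direction. Ccn5 was 105, 32.6 and 76.3 CPM, a ratio of 0.309 (0.233 to 0.404) with age and of 2.34 (1.77 to 3.13) with treatment. Ankrd1 was 56.9, 33.7 and 86.9 CPM. Its age ratio was 0.592 (0.441 to 0.785) and its treatment ratio 2.58 (1.97 to 3.43). Ccn3 was 46.5, 25.9 and 24.3 CPM, 0.557 with age (0.398 to 0.766) and 0.939 with treatment (0.656 to 1.36). Its age ratio reached the limit in 7 of 9 alternatives, and was 0.982 with a looser cell filter (at least 200 genes and under 20% mitochondrial UMIs) and 0.879 with a stricter one (at least 1000 genes and under 5%). In the treatment contrast Ccn5 and Ankrd1 were the 2 genes to pass, against 6.37% of 7886 genes. Ccn2 had ratios of 0.728 and 1.38. The first reached 1.5-fold in 3 of 9 alternatives, down to 0.623, and the second in 1 of 9, at 1.66. The class was small, with 177, 117 and 206 cells. Its summed macrophage/monocyte markers were 724, 1568 and 995 CPM, its 9 fibre markers 34.5, 90.1 and 35.8 CPM, and the 10 FAP markers, all detected, summed to 38504, 34926 and 40555 CPM there against 31473, 37753 and 31696 CPM in FAP-like cells, so the class shares the FAP genes. Their part was not tested.

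Wwtr1, which encodes TAZ, was highest in endothelial-like cells, at 331, 318 and 328 CPM, followed by pericyte/smooth muscle-like (260.4, 215 and 247), tenocyte-like (198, 200.4 and 191), FAP-like (155, 171 and 143) and MuSC/myoblast-like cells (70.5, 82.9 and 75.5), and no 2 neighbours in this order overlapped. None of its 10 ratios passed the limit. Yap1 followed a similar order, with overlapping levels in pericyte/smooth muscle-like, endothelial-like and tenocyte-like cells (37.2 to 84.4 CPM), FAP-like cells at 33.7, 37.0 and 30.8 CPM and MuSC/myoblast-like cells lowest at 23.1, 25.5 and 23.0 CPM. In FAP-like cells Wwtr1 was lower in old rMETRNL than in old PBS in 10 of 11 sub-clusters, with 3 intervals below 1, and the class ratio was 0.838 (0.808 to 0.870).

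Tead1, the TEAD factor with the highest UMI counts in FAP-like cells, varied little across the stromal and myogenic classes. It measured 115, 121 and 115 CPM in MuSC/myoblast-like cells and 101, 123 and 113 CPM in FAP-like cells, which overlapped, and 76.7 to 92.0 CPM in the other 3 classes. Its age ratio in FAP-like cells was 1.22 (1.17 to 1.27), above 1 in 10 of 11 sub-clusters with 7 intervals, and it did not reach 1.5-fold in any class. Its age ratio in pericyte/smooth muscle-like cells was 0.987, but reached 1.5-fold in 3 of 9 alternatives, down to 0.605 with doublet calls kept. The other TEAD genes were not among the 10. Tead2 was 72.4, 46.1 and 53.7 CPM in MuSC/myoblast-like cells and 11.1, 7.69 and 10.2 CPM in FAP-like cells, and Tead4, a TEAD gene of myogenic cells, was under 1 CPM in FAP-like and 22.4, 14.96 and 18.0 CPM in MuSC/myoblast-like cells.

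Ankrd1, a striated muscle ankyrin repeat protein, was a gene of the myogenic and tenocyte-like classes. MuSC/myoblast-like cells held 280.1, 256 and 355 CPM, and FAP-like cells held 1.84, 1.56 and 1.52 CPM. The thinned share of FAP-like cells with an Ankrd1 UMI, 0.420%, 0.528% and 0.420%, had intervals that overlapped those of macrophage/monocyte-like cells (0.306%, 0.310% and 0.174%). Ankrd1 was 28.7, 2.16 and 0 CPM in FAP-like sub-cluster 12, so part of the young PBS level sat in its 41 cells. Outside that sub-cluster the FAP-like level is read as background. Within the myogenic class, cells with a Myog UMI and no Pax7 UMI, which are differentiating, held 494, 562 and 737 CPM, and cells with a Pax7 UMI and no Myog UMI, closer to stem cells, held 112, 131 and 189 CPM. The first gate had 107, 39 and 86 cells and the second 199, 103 and 200. Muscle fibre-like cells held 250.1, 265 and 79.5 CPM from 35, 397 and 35 UMIs.

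**Figure D5:**
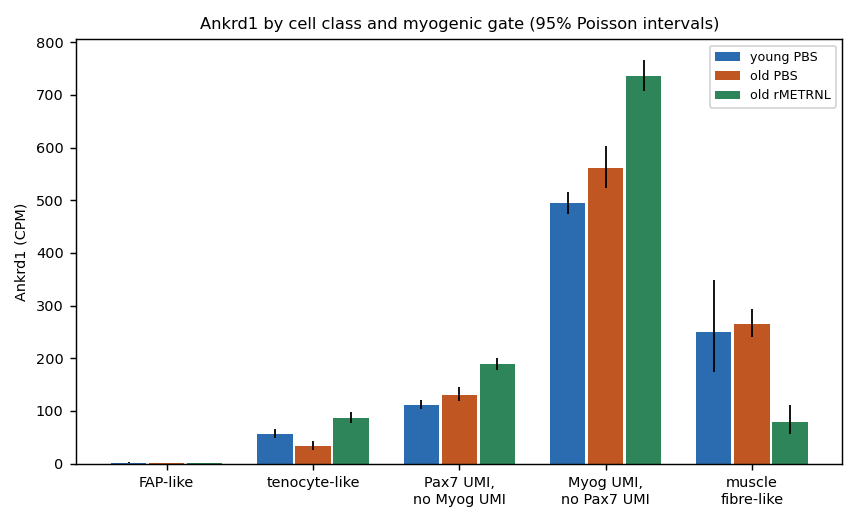
Ankrd1 level (CPM, linear axis from 0) in FAP-like, tenocyte-like and muscle fibre-like cells and in 2 gates of MuSC/myoblast-like cells, 1 bar per library with 95% Poisson intervals. Cells with a Myog UMI and no Pax7 UMI are highest in each library, at 494 to 737 CPM.

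In MuSC/myoblast-like cells 1 of 9 genes passed in the age contrast, against 6.66% of 11114 genes, and 0 of 9 in the treatment contrast, against 5.29% of 10992. With treatment Ccn2 had a ratio of 1.18 (0.832 to 1.69), which ran from 0.832 to 2.62 and reached 1.5-fold in 3 of 8 alternatives, and Ccn4 and Ccn5 each reached it in 1 of 9. The gene that passed was Amotl2, which encodes an angiomotin that binds YAP, at 32.6, 21.5 and 26.7 CPM and a ratio of 0.659 (0.541 to 0.797). It reached the limit in 5 of 9 alternatives and lay between 0.558 and 0.744 in all 9. Ankrd1 had a treatment ratio of 1.39 (1.31 to 1.47), and the old rMETRNL level was the highest of the 3 in both gates. Ccn4 was 1.32 with age (1.19 to 1.46) and 0.730 with treatment (0.657 to 0.811). In cells with a Pax7 UMI and no Myog UMI it was 91.7, 131 and 73.8 CPM, and in cells with a Myog UMI and no Pax7 UMI it was level at 47.6, 47.5 and 48.1 CPM. The 10 FAP markers summed to 512, 707 and 452 CPM in the class and the 10 endothelial markers to 10.8, 22.1 and 13.9 CPM, both highest in old PBS. The macrophage/monocyte markers (414, 396 and 519 CPM) and the fibre markers (1227, 1092 and 989 CPM) were not. The part of these markers was not tested.

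Amotl2 stayed close to Ccn1 over the cell classes. It measured 69.9, 68.9 and 70.2 CPM in tenocyte-like cells, 61.1, 45.7 and 54.5 CPM in FAP-like cells and 47.7, 54.2 and 45.9 CPM in endothelial-like cells. Over the 24 points of 8 classes by 3 libraries, among 17123 genes, Ccn1 was the gene most like Amotl2, with a Pearson r of 0.991 on log2(CPM + 1), and Amotl2 was second for Ccn1 after Ppic, at 0.992. The points of 1 library share its depth and the immune classes all lie near 0, so the high r values describe the class pattern. By the same measure the closest genes were Piezo2 for Ccn2 (0.988), Hhipl1 for Ccn3 (0.967), Gm15867 for Ccn4 (0.979), Prrx2 for Ccn5 (0.974), Lmcd1 for Yap1 (0.987), Cavin3 for Wwtr1 (0.986), Snai2 for Tead1 (0.991) and Lypd6 for Ankrd1 (0.966).

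The genes around these 10 in the pathway were read in FAP-like cells. Of 19 Hippo kinases and regulators, all with enough UMIs, 0 passed in either contrast, where 12.2% (age) and 7.77% (treatment) of all genes did. Their median log2 ratios were 0.09 (age) and -0.11 (treatment) against -0.05 and 0.02 over all genes. The angiomotin Amotl1 came closest with age, at 65.0 and 90.1 CPM, a ratio of 1.39. Of 22 genes of a YAP/TEAD target signature, which includes Ccn1, Ccn2, Ankrd1 and Amotl2, 1 was higher with age (Foxf2, 1.30 and 2.06 CPM) and 1 lower (Nuak2, a kinase, 6.72 and 4.43 CPM), where 5.98% and 6.26% of all genes were. With treatment 1 was lower, Igfbp3, an IGF-binding protein, at 67.2 CPM in old PBS and 35.4 in old rMETRNL, against 3.74% of all genes. Of 11 genes for receptors of CCN proteins, 1 was higher with age, the leukocyte integrin Itgam at 1.30 and 2.36 CPM, against the 5.98% of all genes. With treatment 1 was lower, the laminin receptor chain Itga6 at 8.19 and 3.86 CPM, against the 3.74%. The 11 macrophage/monocyte markers summed to 177, 204 and 214 CPM in FAP-like cells of the 3 libraries, and their part in the Itgam level was not tested.

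Of 11 actin genes and other targets of serum response factor 6 were lower in old PBS FAP-like cells, against the 6.26% of all genes, and the median log2 ratio was -0.61. Tagln, a smooth muscle actin-binding protein, was 115, 44.5 and 65.4 CPM over the 3 libraries. With treatment 0 of 10 passed, against 7.77% of all genes in either direction, with a median of 0.41 and a Tagln ratio of 1.47. Sub-cluster 2, which had Acta2 and Tpm2 among its 10 leading genes, made up 11.9%, 7.68% and 13.02% of FAP-like cells, and the part of this in the list was not tested. Of the 12 immediate early genes 2 were higher with age in FAP-like cells, the transcription factors Klf4 (417 and 736 CPM) and Klf2 (195 and 297 CPM), against the 5.98% of all genes. With treatment 0 of the 12 passed, against the 7.77%. Of the 6 CCN genes 5 had enough UMIs in FAP-like cells. Ccn4 alone of these was lower with age, against the 6.26% of all genes, and 0 passed with treatment, against the 7.77%. Of the YAP/TAZ and TEAD genes 0 of 5 passed in either contrast, where 12.2% (age) and 7.77% (treatment) of all genes did. In endothelial-like cells 5 of the 12 immediate early genes were higher with age, against 7.74% of all genes, and 1 was lower with treatment, against 5.35%.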

How the data were processed

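Single-cell suspensions of injured muscle had been sequenced in 3 libraries. The authors deposited raw UMI counts per gene and barcode, made with Cell Ranger 5.0.0 per the file headers and mapped to mm10 (the submitters' processing notes also list Cell Ranger 3.1.0), so free RNA in the droplets was still in the values. Barcodes needed 500 or more genes and a mitochondrial share of UMIs under 10%. Scrublet's automatic threshold called only 2, 2 and 3 cells, so the highest scores were removed instead, at 0.8% per 1000 barcodes (1110, 1112 and 1433 cells). Counts were scaled to 10000 per cell, and 2000 variable genes, 30 principal components, 20 neighbours and Leiden clustering at 0.8 gave 26 clusters (scanpy 1.11.5), named from lists of markers for 15 classes. The FAP-like, endothelial-like and macrophage/monocyte-like classes were each sub-clustered, and sub-clusters led by another class or with few UMIs were removed (3.86 to 15.8% of a class). The first was judged on the listed markers, so endothelial-like sub-cluster 10, led by leukocyte genes outside the lists, was kept. UMIs of a class were summed in each library and scaled to CPM, with exact Poisson intervals. Ratios of 2 libraries had the exact binomial interval conditional on both counts. The ratio intervals were run on simulated Poisson counts, the model they assume. That checks the code and says nothing of spread between cells, mice or libraries. Shares of cells were taken after thinning, with exact binomial intervals.

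The 10 genes, the 7 gene lists and the comparisons were chosen with earlier results of these data known. Besides the 10 genes, the text names the genes closest in class pattern and, for each list, up to 2 genes with the largest ratio in FAP-like cells per contrast. Genes named in the sub-clusters are their leading genes, and Pax7, Myog, Tead2, Tead4 and Ccn6 were added after values were seen. The alternatives were other filters, clusterings, scalings and gates, and, added after the data were seen, cells with at least 5000 UMIs, equal sub-cluster shares, classes without some sub-clusters and the gate within the class.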

Additional observations from a re-analysis of the deposited data

Results flagged for a closer look

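Some genes left a ratio of 1 in opposite directions in 2 cell classes, each by at least 1.2-fold and with the interval leaving out 1. The difference between classes was not tested, since each class of a library comes from the same pool. In the age contrast Ccn1 was lower in FAP-like cells (0.773) and higher in pericyte/smooth muscle-like (1.27) and endothelial-like cells (1.42). Over the alternatives the pericyte/smooth muscle-like ratio ran from 1.02 to 3.32 and the endothelial-like ratio from 1.002 to 2.05. Ccn3 was higher in FAP-like (1.41) and lower in tenocyte-like cells (0.557). Ccn4 was lower in FAP-like (0.661) and higher in MuSC/myoblast-like cells (1.32).

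In the treatment contrast Ccn1 was higher in FAP-like (1.30) and lower in pericyte/smooth muscle-like cells (0.681), where it ran from 0.617 to 1.07 over the alternatives. Ccn2 was lower in FAP-like cells (0.828) and higher in tenocyte-like (1.38), pericyte/smooth muscle-like (2.74) and endothelial-like cells (2.75). Ccn5 was higher in tenocyte-like (2.34) and lower in MuSC/myoblast-like cells (0.758). The contrasts share the old PBS library, so these values are not independent of those with age. No group held enough libraries to look for a library that stood apart.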

How the results depend on the processing

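No paired analysis was possible because each group was 1 library, and for the same reason no library could be left out. Of the 10 genes in FAP-like cells 1 passed with age. The number was 0 with median-of-ratios size factors, with equal sub-cluster shares and with doublet calls kept, 3 with the mean of per-cell CPM (Ccn3, Ccn4 and Ankrd1) and 2 with a marker gate in each cell (Ccn3 and Ankrd1). It was 1, but not Ccn4, with the gate within the class (Ccn3) and with the stricter cell filter (Ankrd1). Ccn4 kept a ratio of 0.591 to 0.712 in every alternative run, and Ankrd1, at few UMIs, ranged from 0.566 to 1.603. With treatment the number was 0 in every alternative run. In endothelial-like cells the 2 with age became 1 with doublet calls kept, and the 2 with treatment became 0 with the mean of per-cell CPM and 1 with equal sub-cluster shares. Under the marker gate both treatment calls were lost (Ccn2 1.25, Yap1 0.701) and 3 other genes passed. Ccn2 with age missed the limit with the mean of per-cell CPM, equal sub-cluster shares and the marker gate, and Yap1 with the first 2 and with doublet calls kept (1.49). The Ccn2 age ratio there was 1.11 under the marker gate, which took in cells of other classes: 110 of its 357 Ccn2 UMIs in old PBS came from endothelial-like cells. Counted on the gated cells of the class alone it was 21.2 CPM in old PBS against 45.3 in young PBS. Ccn2 with treatment ranged from 1.25 to 3.44. In the other classes the age ratio of Ccn5 in tenocyte-like cells was 0.240 to 0.344, that of Ankrd1 0.508 to 0.755 and that of Ccn3 0.332 to 0.982, and that of Amotl2 in MuSC/myoblast-like cells was 0.558 to 0.744. The median log2 CPM ratio of all genes lay within 0.06 of 0 in each class, which bears on median-of-ratios scaling but not on the mean of per-cell CPM. Counts under about 50 UMIs limited Ccn3, Ccn4, Ccn5 and Ankrd1 in pericyte/smooth muscle-like cells, and Ccn5 (both contrasts) and Ankrd1 (age) in endothelial-like cells, and Ccn3 in MuSC/myoblast-like cells. Apart from those named here, the causes of these shifts were not tested.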

Other observations

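Glial-like cells, with 23, 65 and 48 cells in young PBS, old PBS and old rMETRNL, were too few for the comparisons. Ccn3 was 17.6, 139 and 58.4 CPM there, from 4, 41 and 14 UMIs. Tead1 was 163, 210 and 196 CPM and Wwtr1 145, 166 and 142 CPM, while Ccn5 had 0, 1 and 1 UMIs.

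Among FAP-like cells thinned to 5000 UMIs, Ccn2 was found in 47.9% of Ccn1-positive and 28.5% of Ccn1-negative cells in young PBS, in 43.0% and 38.1% in old PBS, and in 40.4% and 29.7% in old rMETRNL. The intervals of each pair overlapped in old PBS and did not in the other 2 libraries. Amotl2 was found in 28.0% and 17.9% of Ccn1-positive and Ccn1-negative cells in young PBS, 20.3% and 18.8% in old PBS, and 22.8% and 17.3% in old rMETRNL. Yap1-positive and Yap1-negative cells held Wwtr1 at like shares, 55.6% and 51.9%, 56.7% and 54.5%, and 49.6% and 47.4%, with overlapping intervals in all 3 libraries.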
